A study of Mus musculus with 8 samples.

Results

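The PHLDA family is a set of small proteins built around a pleckstrin homology-like domain, and its members Phlda1, Phlda2 and Phlda3 were described here in the livers of male db/db mice treated with control or AF1 peptide. The members were taken by gene symbol, and all 3 were among the 21532 genes of the deposited RNA-Seq table. They were chosen by the measured difference between control and AF1 peptide mice, Phlda1 for its high rank in that contrast. Their differences between the groups are therefore given as a description, with no p value.

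All 8 mice were male and carried the db/db genotype, which leaves them without a working long-form leptin receptor and makes them obese and diabetic. The 4 control and the 4 AF1 peptide mice were 8 weeks old at the start and were injected through the retro-orbital vein with control or with AF1 peptide, at a dose of 5 mg/kg given 2 times a week over 5 weeks. AF1 peptide is a synthetic sequence drawn from the N-terminal part of estrogen receptor α (ERα), with short stretches deleted. It is joined to a TAT sequence that carries it into cells, and the study asked how the peptide acts on the diabetic liver. Every mouse gave 1 library from frozen whole liver, so that the cells behind a transcript are not separated, and no lean mice were included.

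Pleckstrin homology domains bind phosphoinositides, the membrane lipids that PI3K makes and that recruit AKT downstream of the insulin receptor. Phlda1 (also TDAG51) was found in T cells undergoing activation-induced death, is switched on by growth factors through ERK and by endoplasmic reticulum stress, and mice that lack it become obese with fatty livers. Phlda2 (also Ipl or Tssc3) is an imprinted gene expressed from the maternal copy that restrains growth of the placenta, and Phlda3 (also Tih1) is a target of p53 whose product competes with AKT for membrane phosphoinositides.

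Phlda2 and Phlda3, the 2 members whose levels varied together across mice, have a promoter window in the RefSeq table of build GRCm38.p6. The windows span 250 bases before to 50 bases after the annotated start and are shown 5′ to 3′ on the strand of the gene, with the letters of a TATA box (TATAAA) or a CCAAT box (CCAAT) in capitals. Phlda2 lies at chr7:143502475-143502774 on the minus strand and Phlda3 at chr1:135765835-135766134 on the plus strand, coordinates that differ from those of the mm39 build of the study. No window is given for Phlda1.
Phlda2: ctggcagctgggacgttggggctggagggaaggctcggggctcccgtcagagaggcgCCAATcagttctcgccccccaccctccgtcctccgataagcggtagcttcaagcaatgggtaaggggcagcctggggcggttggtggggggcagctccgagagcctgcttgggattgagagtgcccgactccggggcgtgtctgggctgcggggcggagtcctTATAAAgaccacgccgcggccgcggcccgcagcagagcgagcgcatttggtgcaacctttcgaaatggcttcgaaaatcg
Phlda3: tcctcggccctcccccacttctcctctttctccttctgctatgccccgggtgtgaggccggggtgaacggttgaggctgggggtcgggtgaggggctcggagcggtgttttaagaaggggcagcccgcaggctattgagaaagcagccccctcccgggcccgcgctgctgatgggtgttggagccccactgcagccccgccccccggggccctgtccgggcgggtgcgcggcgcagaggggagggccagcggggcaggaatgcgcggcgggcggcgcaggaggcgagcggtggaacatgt

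Both windows were rich in G and C, at 65.7% for Phlda2 and 71.7% for Phlda3, where the median of 32851 promoter windows was 52.7%. Each held 26 CpG dinucleotides, against a median of 7. The Phlda2 window held 1 TATA box, which began 30 bases before the start, and 1 CCAAT box, which began 193 bases before it, while the Phlda3 window held neither in either direction. A TATA box occurred in 13.6% and a CCAAT box in 37.4% of all windows, counting both strands. Neither window held the AP-1 letters TGANTCA (7.81% of all windows), the cAMP response element TGACGTCA (1.79%), the C/EBP-ATF element TGATGNAA (3.97%) or the palindromic estrogen response element (0.0700%), searched on both strands.

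Depth ranged from 23031880 to 45117528 reads per mouse, with the shallowest library in AF1 peptide replicate 2. AF1 peptide replicate 1 stood apart from the other 7 mice, scoring 74.2 on principal component 1 against -21.8 to 2.33 in the others, and the members and the results that moved without it are also given without it. Hepatocyte markers such as albumin summed to between 1768970 and 2604810 normalized counts in every mouse, with the lowest sum in AF1 peptide replicate 1. A limma fit on log2(normalized count + 1) covered 15989 genes whose normalized counts averaged 10 or more. Called genes had an unadjusted p value below 0.05 with over 1.3-fold change, and 286 were higher (1.79%) and 304 lower (1.90%) with AF1 peptide, 3.69% in all. With all libraries scaled to equal totals, these counts were 122 and 602. After Benjamini-Hochberg adjustment over all tested genes, which applies to every adjusted limma p value here, 0 genes were below 0.05 in limma (990 unadjusted), 0 in edgeR and 3 in DESeq2.

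Phlda1 was higher in the liver of every AF1 peptide mouse than in any control mouse. Its normalized counts, which are reads divided by 1 size factor per library, were 357, 453, 376 and 441 in control replicates 1 to 4 and 743, 1001, 882 and 542 in AF1 peptide replicates 1 to 4. The groups did not overlap, and the controls lay close together, whereas the AF1 peptide mice were spread over a 1.85-fold range. The mean in control mice was 407 ± 47.5 (SD, n = 4). In AF1 peptide mice it was 792 ± 197 (SD, n = 4), a ratio of 1.95. On the log2(normalized count + 1) scale the difference was 0.93, which is 3.14 times the pooled SD between mice of one group. All 4 AF1 peptide mice lay above all controls in 2.05% of the tested genes, and 86 genes had a larger positive difference than Phlda1. In bulk liver, more cells that express Phlda1 and more RNA per cell cannot be told apart.

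**Figure D1:**
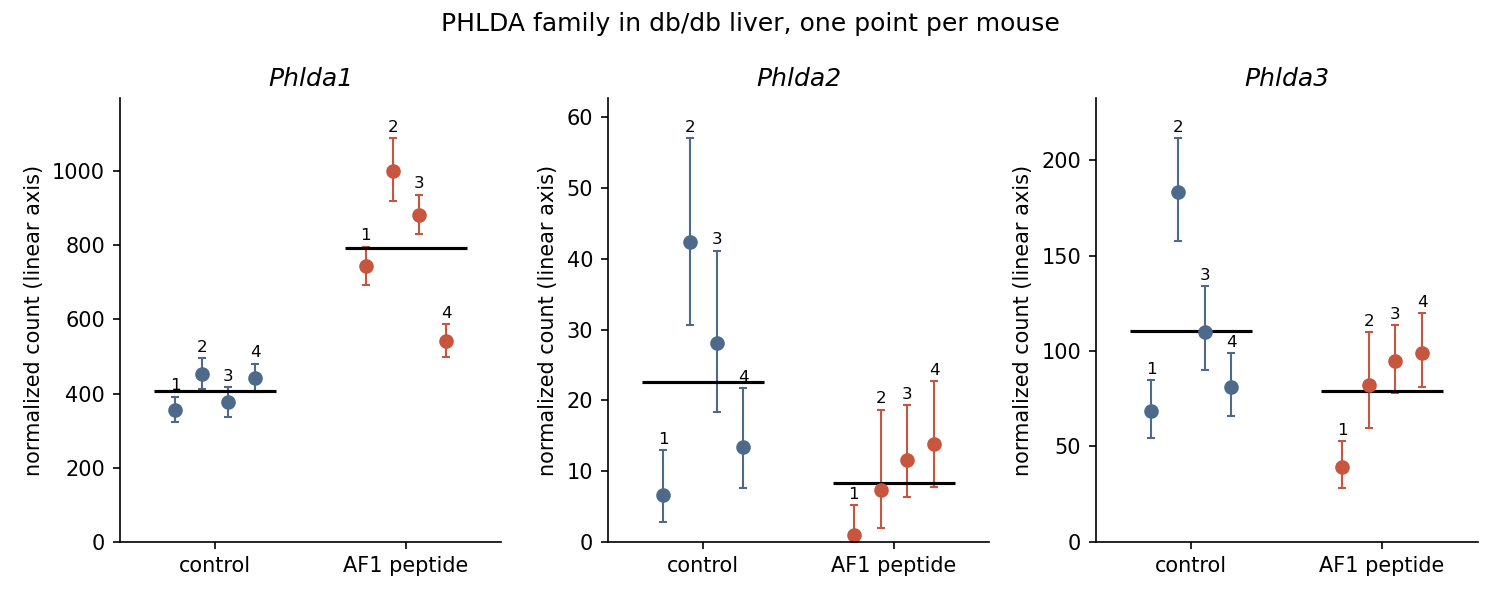
Normalized counts of Phlda1, Phlda2 and Phlda3 (linear axes from 0) in each control and AF1 peptide mouse. Points are mice, numbers are replicate numbers, error bars are 95% Poisson intervals of the reads (counting error only), and horizontal lines are group means. The 4 AF1 peptide mice sit between 542 and 1001 for Phlda1, all above the controls (357 to 453), and the groups overlap for Phlda2 and Phlda3.

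Counting error was small beside the spread between mice for Phlda1, which had 348 to 1071 reads per library. The nearest mice of the 2 groups, control replicate 2 and AF1 peptide replicate 4, had 95% Poisson intervals of 413 to 496 and 499 to 587 normalized counts, and such intervals cover counting error only. The separation of the groups depended on the scale. In CPM (reads scaled to an equal library total), AF1 peptide replicate 4 had 13.8 and control replicate 4 had 14.4, so that 3 of the 4 AF1 peptide mice were above all controls and the ratio of the means was 1.81. The reads of 13 mitochondrial genes took 22.4 to 34.3% of a library in control and 20.8 to 37.8% in AF1 peptide mice. In CPM of the reads outside these genes, the controls had 13.5 to 18.5 and the AF1 peptide mice 21.7 to 38.2, again with no overlap. With 1 mouse left out in turn the log2 difference of Phlda1 ranged from 0.81 (without AF1 peptide replicate 2) to 1.1 (without AF1 peptide replicate 4), and without AF1 peptide replicate 1 it was 0.95. The reference annotation (GENCODE M21) places a non-coding gene, Gm28592, inside Phlda1 on the opposite strand. It is not a row of the table and the use of strand in counting is not stated, so that reads of the 2 genes cannot be told apart.

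Phlda2 had the lowest level of the family, with few reads in several mice. Its normalized counts were 6.59, 42.3, 28.1 and 13.4 in control replicates 1 to 4 and 0.933, 7.31, 11.5 and 13.8 in AF1 peptide replicates 1 to 4. The groups overlapped, since AF1 peptide replicates 2 to 4 lay within the control range and the lowest value, in AF1 peptide replicate 1, came from 1 read. Control mice averaged 22.6 ± 15.9 (SD, n = 4) and AF1 peptide mice 8.39 ± 5.65 (SD, n = 4), a ratio of 0.371. All 4 AF1 peptide mice were below the control mean. The log2 difference of -1.38 was -1.13 in units of the pooled SD. Without AF1 peptide replicate 1 it was -0.74 and the ratio of the means was 0.481. With 1 to 43 reads per library, the 95% Poisson intervals of single mice were wide, for example 2.85 to 12.99 in control replicate 1 and 7.71 to 22.7 in AF1 peptide replicate 4.

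Phlda3, the p53-responsive member, had 68.4, 183, 110 and 81.2 normalized counts in control replicates 1 to 4 and 39.2, 82.2, 94.7 and 99.2 in AF1 peptide replicates 1 to 4. The groups overlapped in the middle of their ranges, with the highest value in control replicate 2 and the lowest in AF1 peptide replicate 1. The means were 111 ± 51.3 (SD, n = 4) and 78.8 ± 27.4 (SD, n = 4), and the log2 difference of -0.47 was smaller than the pooled SD of 0.62. Without AF1 peptide replicate 1 it was -0.17, and without control replicate 2 it was -0.19.

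Adjusted for transcript length, the order of the family was the same in all 8 mice, with Phlda1 above Phlda3 and Phlda3 above Phlda2. Normalized counts per kilobase in control mice were 209 ± 24.4 for Phlda1, 77.2 ± 35.8 for Phlda3 and 29.9 ± 21 for Phlda2 (SD, n = 4 each), taking the longest protein-coding transcript of each gene in GENCODE M21 (1949, 1435 and 757 nucleotides). In AF1 peptide mice they were 406 ± 101, 54.9 ± 19.1 and 11.1 ± 7.46 (SD, n = 4 each). Of the summed family signal per length, a ratio within a library that no scaling can change, Phlda1 made up 55.9 to 76.5% in control and 76.1 to 93.0% in AF1 peptide mice. These ranges overlapped slightly, because control replicate 1 had the highest control share and AF1 peptide replicate 4 the lowest AF1 peptide share.

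**Figure D2:**
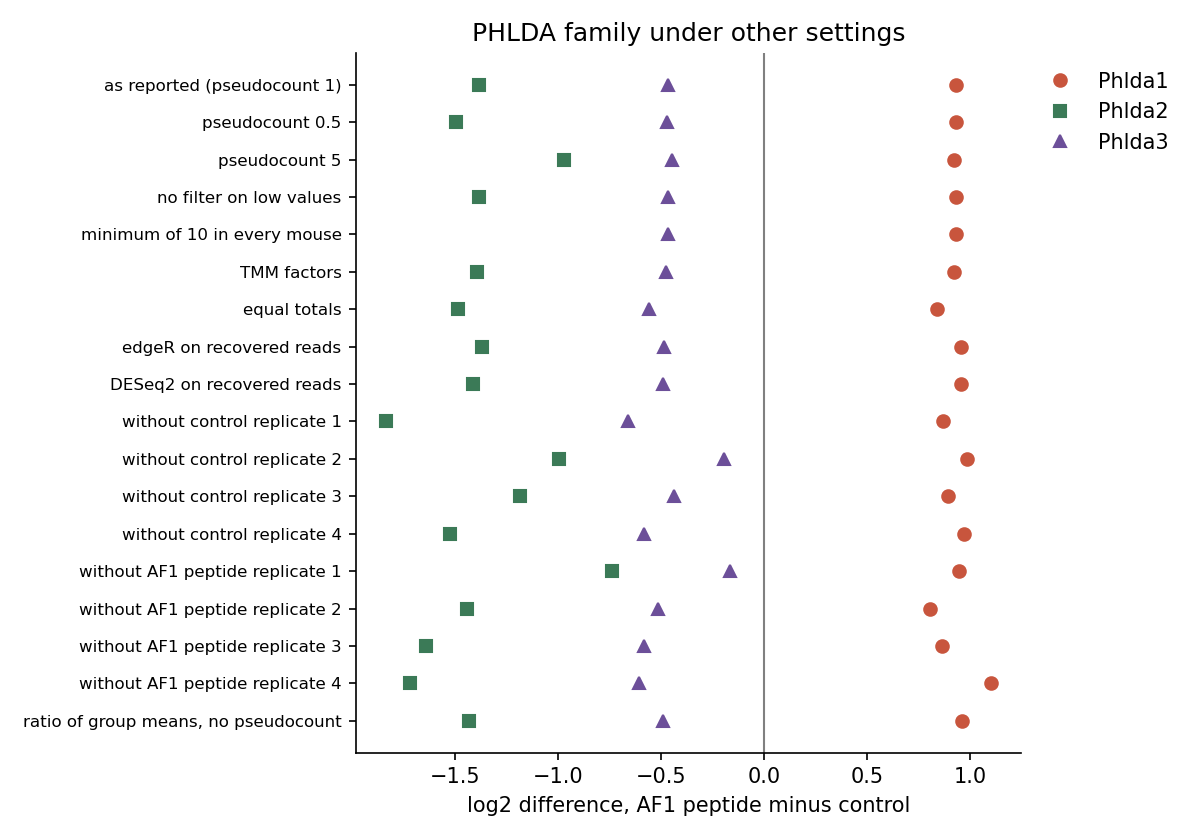
Log2 difference (AF1 peptide minus control, x axis) of each PHLDA family member as reported and under other pseudocounts, filters, scalings and tools and with each mouse left out (y axis). Phlda1 stays between 0.81 and 1.1, whereas Phlda2 runs from -1.83 to -0.74 and Phlda3 from -0.66 to -0.17.

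Across the 8 mice, Phlda2 and Phlda3 varied together. The Pearson correlation of their log2(normalized count + 1) was 0.963 and the Spearman correlation 0.929 over n = 8 mice. Since the members were chosen by the difference between the groups, only the variation within the groups was tested. After the mean of each treatment group was removed, the Pearson and Spearman correlations were 0.970 and 0.976 (exact permutation test within groups, two-sided, p = 0.00347 each, the smallest that 576 pairings can give, adjusted p = 0.0104 each by Benjamini-Hochberg over the 3 pairs of members). With group means kept, the Pearson correlation was 0.856 over 6 mice, without the mice farthest from the median of Phlda2. The mice left out were AF1 peptide replicate 1 and control replicate 2. Among 15988 tested genes, Phlda3 ranked 11 in its correlation with Phlda2, and Phlda2 ranked 9 in its correlation with Phlda3. Both genes were high in control replicates 2 and 3 and lowest in AF1 peptide replicate 1.

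No such relation was detected for Phlda1. Over the 8 mice its Pearson correlation was -0.454 with Phlda2 (Spearman -0.262) and -0.291 with Phlda3 (Spearman -0.0476). With group means removed, the Pearson values were 0.0575 and 0.135 (exact permutation tests within groups, two-sided, p = 0.785 and 0.688, adjusted p = 0.785 each) and the Spearman values 0.119 and 0.238 (exact permutation p = 0.813 and 0.635, adjusted p = 0.813 each). Without AF1 peptide replicates 2 and 3, the mice farthest from the median of Phlda1, the Pearson correlations with group means kept were -0.634 and -0.513 over 6 mice. AF1 peptide replicate 1, for example, had the lowest count of the 8 mice for Phlda2 and Phlda3 and the third highest level of Phlda1. Correlations within a single group are not given, because each group has 4 mice.

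**Figure D3:**
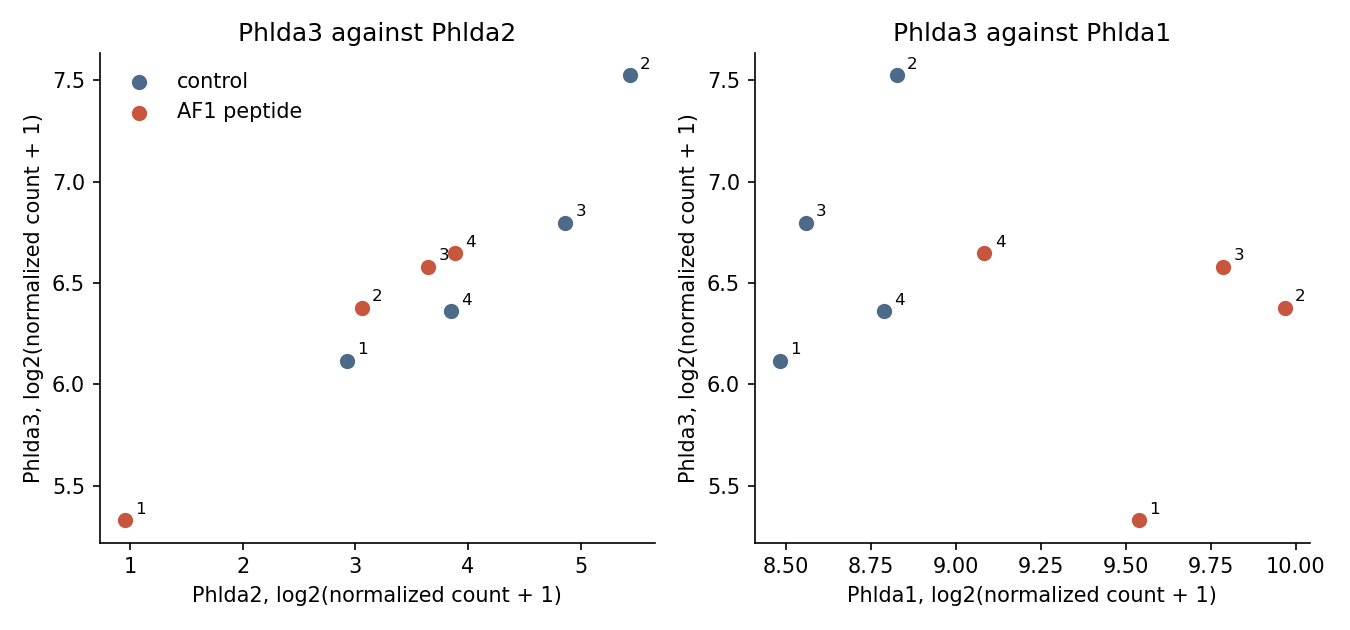
Levels of Phlda3 against Phlda2 (left) and against Phlda1 (right), both axes in log2(normalized count + 1), with 1 point per mouse and replicate numbers beside the points. Phlda3 follows Phlda2 over all 8 mice (r = 0.963), whereas control and AF1 peptide mice part along the Phlda1 axis with no shared trend (r = -0.291).

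The genes most like each member over the 8 mice were taken by Pearson correlation among 12443 genes averaging 50 or more normalized counts, and these values are descriptions because the genes were picked for them. For Phlda1 the closest were Alkbh3, a demethylase that repairs alkylated nucleic acids (r = 0.978, and 0.919 with group means removed), Nrg4, a secreted ErbB ligand (0.959 and 0.879), Arhgef18, a guanine nucleotide exchange factor (0.948 and 0.867), and Phactr4, a regulator of protein phosphatase 1 and actin (0.944 and 0.924). Nrg4 had 544, 743, 542 and 631 normalized counts in control replicates 1 to 4 and 927, 1026, 904 and 710 in AF1 peptide replicates 1 to 4. As for Phlda1, AF1 peptide replicate 2 was the highest and replicate 4 the lowest of the AF1 peptide mice. The groups overlapped, as control replicate 2 lay above AF1 peptide replicate 4, and the log2 difference was 0.53. The annotation of Nrg4 overlaps Fbxo22 on the opposite strand. Alkbh3 had 742 ± 9.48 normalized counts in control and 806 ± 19.7 in AF1 peptide mice (SD, n = 4 each) with no overlap, and its log2 difference was 0.12. Alkbh3 shares 3.63% of its transcripts' 50-base words with the overlapping Gm27027 and has Alkbh3os1 annotated on the opposite strand.

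The genes most like Phlda2 were Plk1, a mitotic kinase (r = 0.987), Clec4n, a myeloid lectin receptor (0.974), Cd2ap, an adaptor of the actin cytoskeleton (0.974), and Sprr1a, a squamous epithelial and injury-induced protein (0.974). For Phlda3 they were Fam83a, which acts in growth factor signaling (0.991), Nudt4, a diphosphoinositol polyphosphate phosphohydrolase (0.976), Gipc2, a PDZ domain protein (0.973), and Wdr1, an actin disassembly factor (0.971). With group means removed, the correlations were 0.988, 0.981, 0.967 and 0.983 for the genes of Phlda2, in the order named. For those of Phlda3 they were 0.992, 0.972, 0.977 and 0.987. Some of these genes had a wide range. Sprr1a had 180, 1256, 644 and 248 normalized counts in control replicates 1 to 4 and 22.4, 194, 402 and 535 in AF1 peptide replicates 1 to 4. Fam83a had 61.0, 363, 121 and 84.6 in control and 17.7, 91.3, 126 and 129 in AF1 peptide replicates 1 to 4. Both shared the peak in control replicate 2 and the low point in AF1 peptide replicate 1 with Phlda2 and Phlda3. For the genes most like a member, correlations without AF1 peptide replicate 1 are not given. Plk1 shares 6.56% of its transcripts' 50-base words with a pseudogene, and the members themselves share none with other genes (0% each).

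Lists of genes tied to the members by textbook knowledge were compared between the groups, and their genes are read against the 3.16% of all tested genes that were higher and the 3.03% that were lower at an unadjusted limma p value under 0.05. Of the ERK output and early response genes, the class to which Phlda1 belongs, 27 of 30 were tested, 0 were higher and 1 was lower. The median log2 difference of the list was 0.06, beside -0.01 for all genes, and 13 of 27 genes lay below 0. The sign of this median was not stable, as it was -0.02 without AF1 peptide replicate 1, and from -0.10 to -0.02 in 7 of 19 alternatives. Ccnd1, which encodes cyclin D1, had 213, 349, 250 and 351 normalized counts in control replicates 1 to 4 and 105, 104, 217 and 252 in AF1 peptide replicates 1 to 4. It fell by 0.86 on the log2 scale (SE 0.31, limma adjusted p = 0.763), with overlapping groups and with LTO1 annotated on the opposite strand. It no longer passed the test without control replicate 2, control replicate 4 or AF1 peptide replicate 2, or with each gene's own variance, and without AF1 peptide replicate 1 it fell by 0.67. Epha2, a receptor tyrosine kinase, and Spry1, a feedback inhibitor of ERK signaling, had log2 differences of -0.44 and -0.29 and did not pass the test with all mice. Epha2 passed in 3 of 19 alternatives (equal totals, the replicate block and without AF1 peptide replicate 3) and was at -0.19 without AF1 peptide replicate 1, and Spry1 passed in 1 (without AF1 peptide replicate 3).

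Of the 30 p53 target genes, all tested, 0 were higher and 2 were lower, and the median log2 difference was -0.09. Eda2r, a receptor of the TNF receptor family, had 36.3, 34.5, 41.1 and 32.7 normalized counts in control replicates 1 to 4 and 8.40, 20.1, 14.8 and 31.2 in AF1 peptide replicates 1 to 4. The groups did not overlap, although AF1 peptide replicate 4 came close to the controls. All 4 AF1 peptide mice lay below all controls in 1.85% of the tested genes. Eda2r fell by 1.05 on the log2 scale (SE 0.35, limma adjusted p = 0.763), and by 0.74 without AF1 peptide replicate 1. Xpc, which recognizes DNA damage in nucleotide excision repair, had 230 ± 20.4 normalized counts in control and 181 ± 24.0 in AF1 peptide mice (SD, n = 4 each), and fell by 0.35 on the log2 scale. It no longer passed the test without control replicate 1, control replicate 2 or AF1 peptide replicate 2, or with the replicate block. Perp, an apoptosis effector, had a log2 difference of -0.39 that did not pass the test with all mice, and it passed in 7 of 19 alternatives. Its log2 difference was -0.23 without AF1 peptide replicate 1.

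Over mice, several p53 targets followed Phlda3. The median correlation of the 30 targets with Phlda3 was 0.406, beside -0.0185 for all tested genes, and 7 of 30 (23.3%) had a correlation above 0.7, beside 8.59% of all genes. The median was 0.163 without AF1 peptide replicate 1, with 5 of 30 (16.7%) above 0.7 beside 3.92% of all genes. Cdkn1a, the cell cycle inhibitor p21, stood out after its values were seen, with r = 0.944 with Phlda3 and 0.951 with Phlda2, and 0.926 and 0.892 without AF1 peptide replicate 1. It had 330, 739, 509 and 369 normalized counts in control replicates 1 to 4 and 97.1, 318, 514 and 401 in AF1 peptide replicates 1 to 4. Other p53 targets ran against Phlda3, such as Ercc5 (r = -0.874) and Plk3 (-0.749), at -0.707 and -0.351 without AF1 peptide replicate 1. The early response genes gave similar values, with a median of 0.429 with Phlda3 and 6 of 27 (22.2%) above 0.7, and 0.464 and 8 of 27 without AF1 peptide replicate 1. The mice share libraries, depth and the position of AF1 peptide replicate 1 in all of these correlations.

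**Figure D4:**
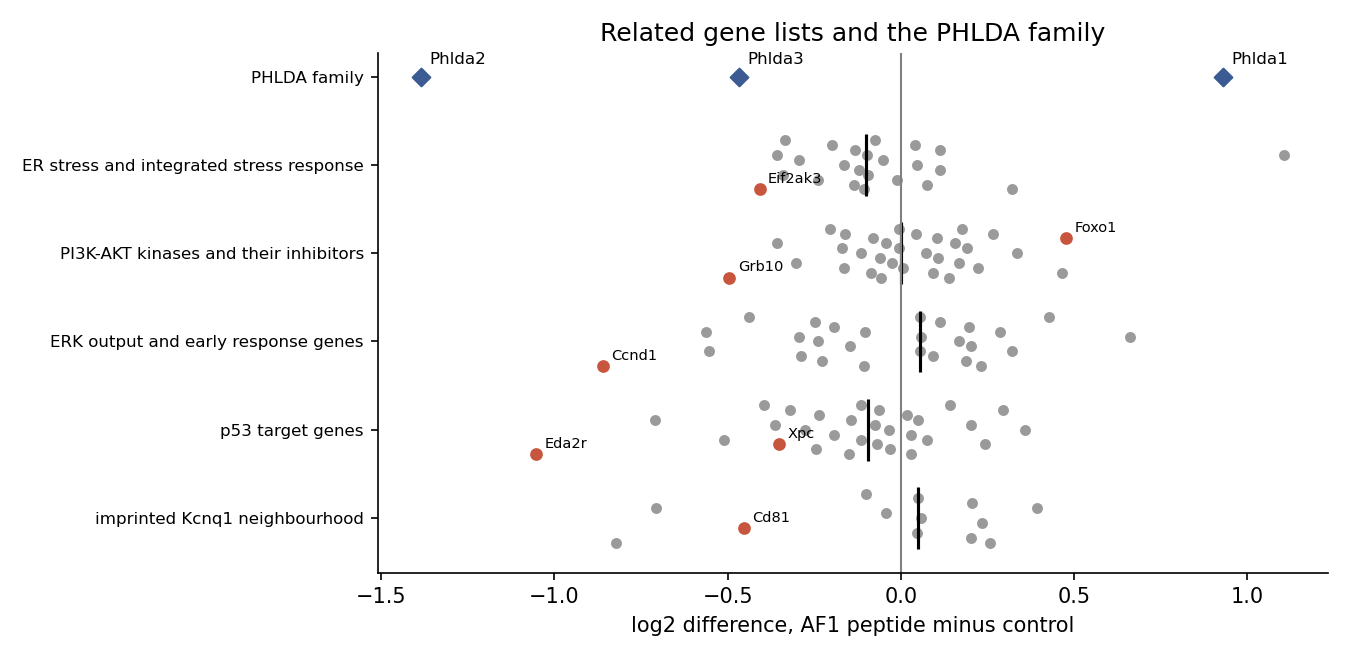
Log2 difference (AF1 peptide minus control, x axis) of each tested gene in the 5 lists of related genes (y axis), with the members at the top as diamonds. Red points with names passed an unadjusted limma p value of 0.05, grey points did not, and black lines are list medians. The medians lie between -0.10 and 0.06, and Phlda1 is farther above 0 than every list gene but Asns, which was high in 1 mouse.

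PI3K-AKT kinases and their inhibitors, the pathway on which Phlda3 is known to act, were 33 genes of which 32 were tested, with 1 higher and 1 lower and a median log2 difference of 0.00. Foxo1, the forkhead factor that AKT excludes from the nucleus, had 525, 502, 485 and 509 normalized counts in control replicates 1 to 4 and 932, 658, 660 and 608 in AF1 peptide replicates 1 to 4. The groups did not overlap, the highest level was in AF1 peptide replicate 1, and Foxo1 rose by 0.48 on the log2 scale (SE 0.13, limma adjusted p = 0.763). The rise was 0.34 without AF1 peptide replicate 1. Scaled to equal totals it did not pass the test, and Gm20402 is annotated on its opposite strand. Grb10, an adaptor that inhibits the insulin receptor, fell from 112 ± 11.1 to 81.9 ± 24.3 normalized counts (SD, n = 4 each), and passed an unadjusted limma p value of 0.05 in only 7 of 19 alternatives. It did not pass without any one of the control replicates or without AF1 peptide replicate 2 or 4. Tsc2, which restrains mTORC1, had a log2 difference of 0.19 that did not pass the test with all mice and passed in 4 of 19 alternatives, with no overlap between the groups and with Pkd1 annotated on the opposite strand.

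Of the 24 genes of endoplasmic reticulum stress and the integrated stress response, all tested, 0 were higher and 1 was lower, with a median log2 difference of -0.10 and 17 genes below 0 (70.8%, beside 51.8% of all genes). Eif2ak3, which encodes the stress kinase PERK, fell from 282 ± 14.4 to 217 ± 57.5 normalized counts (SD, n = 4 each), with AF1 peptide replicate 3 (295) inside the control range of 265 to 300. It lost its unadjusted limma p value under 0.05 in 9 of 19 alternatives, among them without any one of the control replicates or without AF1 peptide replicate 1 or 4. The stress-induced mTORC1 inhibitor Ddit4 and the protein disulfide isomerase Pdia6 had log2 differences of -0.34 and -0.29 and did not pass the test with all mice. Without AF1 peptide replicate 1 they did. Atf3 and Trib3 are also in another of the lists, as is Sesn2.

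Around Phlda2, 13 of 16 genes of the imprinted Kcnq1 neighborhood were tested, with 0 higher, 1 lower and a median log2 difference of 0.05. Cd81, a tetraspanin, had 1748, 1703, 1232 and 1543 normalized counts in control replicates 1 to 4 and 988, 1178, 949 and 1458 in AF1 peptide replicates 1 to 4. It fell by 0.45 on the log2 scale (SE 0.16, limma adjusted p = 0.763), with overlapping groups, and its annotation overlaps R74862 on the opposite strand. Nadsyn1, an NAD synthetase, and Kcnq1ot1, the non-coding RNA that silences the imprinted cluster on the paternal copy, had log2 differences of 0.21 and 0.39 and did not pass the test with all mice. Without AF1 peptide replicate 1 both passed it. Kcnq1, itself a gene of this list, is annotated on the opposite strand of Kcnq1ot1. Cdkn1c, the imprinted neighbor of Phlda2 that encodes the cell cycle inhibitor p57, had 196 ± 37.7 normalized counts in control and 204 ± 47.8 in AF1 peptide mice (SD, n = 4 each). Its limma p value ranked 13 of 13. Over mice, 3 of 13 genes (23.1%) correlated above 0.7 with Phlda2, beside 9.25% of all genes. Among them were Tnfrsf22 and Tnfrsf23 (r = 0.854 and 0.850), with log2 differences of -0.82 and -0.71 that did not pass the test with all mice. Without AF1 peptide replicate 1 these correlations were 0.578 and 0.536, and 0 of 13 genes were above 0.7, beside 3.68% of all genes.

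Macrophage markers followed Phlda2 and Phlda3 over the 8 mice, with lower correlations once AF1 peptide replicate 1 was left out. Of 8 macrophage markers, 5 correlated above 0.7 with Phlda2 and 4 with Phlda3, beside 9.25% and 8.59% of all genes. With Phlda1, 0 did so, beside 3.45% of all genes. The median correlation of these 8 markers was 0.754 with Phlda2, 0.715 with Phlda3 and -0.274 with Phlda1. Without AF1 peptide replicate 1 it was 0.312, 0.287 and -0.0632. Then 0, 1 and 0 of the markers were above 0.7, beside 3.68%, 3.92% and 6.14% of all genes. This was not particular to macrophages. Medians with Phlda2 and Phlda3 were 0.593 and 0.541 for endothelial, 0.554 and 0.528 for stellate and 0.485 and 0.604 for biliary markers. For hepatocyte markers they were -0.101 and -0.135. Without AF1 peptide replicate 1 the biliary medians were 0.327 and 0.495, above those of macrophage markers, and the stellate medians 0.203 and 0.224. The endothelial medians were then 0.0737 and -0.0734, and the hepatocyte medians -0.359 and -0.385. The summed macrophage markers were 6101 to 7610 normalized counts in control mice and 2767 in AF1 peptide replicate 1, against 6623 to 7230 in the other AF1 peptide mice, and all 8 markers were detected in every mouse. Stellate cell markers summed to 4820 to 6976 in control and 3767 to 8021 in AF1 peptide mice. Sinusoidal endothelial markers summed to 6727 to 7585 and 6706 to 8557, biliary markers to 1193 to 1799 and 803 to 2291, and lymphocyte and neutrophil markers to 230 to 369 and 180 to 320. Red blood cell markers ranged from 34147 to 123375 in control and from 27111 to 51923 in AF1 peptide mice. All these ranges of sums overlapped between the groups. Of single markers, macrophage Adgre1 and stellate Dcn were lower and endothelial Stab1 higher at an unadjusted limma p value under 0.05. Their log2 differences were -0.66, -0.42 and 0.28 (adjusted p = 0.763 each). All 8 macrophage and all 5 red blood cell markers lay below 0, as did 2 of 8 stellate markers, beside 51.8% of all genes. The part of these cells in the levels of Phlda1, Phlda2 and Phlda3 was not tested. Of 4 fat markers and 4 pancreas markers, 1 each was a row of the table. The fat marker, Cidec, which hepatocytes of fatty livers also express, was at 243 in AF1 peptide replicate 1 and at 3542 to 4768 in the other 7 mice, and the pancreas marker, Cela1, ranged from 181 to 250 over the 8 mice.

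**Figure D5:**
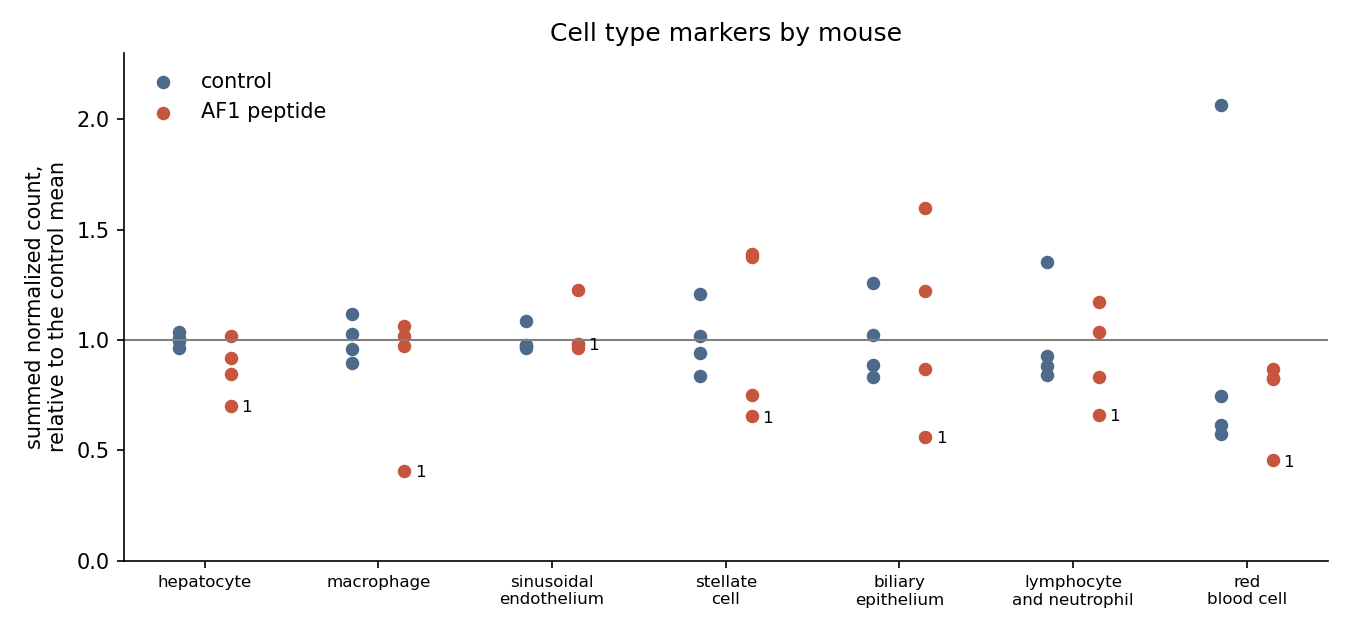
Summed normalized counts of cell type markers in each mouse, relative to the mean of the control mice (y axis, linear from 0), for the 7 marker lists with more than 1 gene in the table (x axis). AF1 peptide replicate 1 is numbered. It is the lowest AF1 peptide mouse in summed hepatocyte, macrophage, stellate cell, biliary, lymphocyte and neutrophil, and red blood cell markers. The hepatocyte sum is mostly albumin, and the hepatocyte markers Cps1, Cyp2e1 and Serpina1c were highest in that mouse. The groups overlap in every list.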

How the data were processed

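RNA from frozen liver of 8 mice was sequenced from stranded mRNA libraries, 1 per mouse. Per the submitters' processing notes, reads were trimmed (Trim Galore 0.6.7), aligned to mm39 (HISAT2, SAMtools 1.17) and counted per gene. The authors deposited normalized counts, a signal in which the reads of each library are divided by 1 size factor. The normalization tool, the annotation and the use of strand in counting are not given in the sources used here. Whole reads were recovered from the steps of the values, and 100% of 172256 values came out whole (tolerance 0.01).

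Groups came from the labels. The limma fit (limma 3.58.1 with trend, R 4.3.3) used log2(normalized count + 1), all 8 mice and 15989 genes with a mean of at least 10. edgeR 4.0.16 and DESeq2 1.42.0 on recovered reads were alternatives, beside other pseudocounts, filters, scalings and left-out mice. Fold changes on this scale understate low genes. The 3 members, 3 genes per list with the smallest limma p value and 4 genes most correlated with each member were named. Some list genes, such as Cdkn1c, Cdkn1a, Tnfrsf22 and Tnfrsf23, were named outside this rule. Members, lists and tests were chosen with earlier results of these data known, and the TATA and CCAAT boxes after the windows were seen. The permutation within groups and the correlations without AF1 peptide replicate 1 were added after seeing the data. Scripts were tested on simulated data. Nothing states whether libraries share a batch. Gene coordinates other than promoter windows are not printed, because the reference annotation is of another build.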

Additional observations from a re-analysis of the deposited data

Results flagged for a closer look

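In all, 9 values lay apart from the rest of their group of 4 mice, with a gap to the nearest mouse, as a share of the group's range, above Dixon's critical value of 0.829. Of 88 groups of mice and measures examined, chance gives about 1 in 20, or 4.4, and 5 of the 9 came from AF1 peptide replicate 1. In that mouse, Foxo1 was high at 932 normalized counts against 608 to 660 in the other AF1 peptide mice (gap 0.840 of the range), and Kcnq1ot1 was low at 86.8 against 121 to 128 (0.840). The mean log2 level of the Kcnq1 neighborhood of Phlda2 was low at 8.32 against 8.86 to 8.97 (0.831). Its summed macrophage markers were 2767 against 6623 to 7230 (0.864), and its red blood cell markers 27111 against 49135 to 51923 (0.888). Control replicate 4 was high in red blood cell markers, at 123375 against 34147 to 44635 (0.882), in lymphocyte and neutrophil markers, at 369 against 230 to 253 (0.836), and in sinusoidal endothelial markers, at 7585 against 6727 to 6804 (0.910). AF1 peptide replicate 3 was high in sinusoidal endothelial markers, at 8557 against 6706 to 6844 (0.925). The levels of Phlda1, Phlda2 and Phlda3 themselves held no such value.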

How the results depend on the processing

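The log2 differences of Phlda1, Phlda2 and Phlda3 kept their sign under every alternative that gave a value, and none moved by more than the spread between mice. A minimum of 10 normalized counts in every mouse left out Phlda2. Without any filter, 435 genes were called higher and 459 lower, with no fold threshold 506 and 484, and at an adjusted limma p value under 0.05 0 and 0. Scaled to equal totals, 122 were higher and 602 lower, and the median log2 difference was -0.19 for p53 targets and -0.0899 for PI3K-AKT genes. With each gene's own variance 197 were lower. Leaving out 1 mouse gave 198 to 457 genes higher and 173 to 491 lower, the highest counts without AF1 peptide replicate 1 (457 and 491) and the lowest without control replicate 2 (198 and 173). It also gave a median of -0.00902 to 0.0644 for PI3K-AKT genes, and the median of early response genes turned negative without control replicate 1 (-0.10), AF1 peptide replicate 3 (-0.10) or AF1 peptide replicate 1 (-0.02). That median was also negative with edgeR and DESeq2 (-0.10 each), equal totals (-0.03) and a minimum of 10 in every mouse (-0.02), and equal totals turned the median of the Kcnq1 neighborhood to -0.04. The cause of these changes was not tested. Same-numbered mice correlated at 0.235, 0.0238, 0.216 and -0.0640, a mean of 0.103 beside -0.0342 for mice of different numbers. In all, 4 of 8 mice correlated best with their own number. The labels name no pairing, and the replicate numbers were not taken to pair the mice. The fit with a replicate block called 341 genes higher and 392 lower. Phlda2 is limited by its 1 to 43 reads per library.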

Other observations

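Insulin receptor substrates and asparagine synthetase, genes of the lists compared with the PHLDA family, stood apart in AF1 peptide replicate 1 and were chosen after their values were seen. Asns, which is induced by the integrated stress response, had 310 normalized counts in that mouse and 10.05 to 33.5 in the other 7. Irs2, which carries the insulin signal to PI3K, had 596 there and 172 to 220 in the others, and Irs1 had 474 there and 166 to 316 in the others. The log2 difference between the groups was 1.11 for Asns, 0.46 for Irs2 and -0.17 for Irs1, and none passed an unadjusted limma p value of 0.05.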
